A study of Mus musculus and Homo sapiens with 107 samples.

Results

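SMARCA2 (listed as ENSG00000080503) and SMARCA4 (listed as ENSG00000127616) encode BRM and BRG1, the motor proteins of SWI/SNF, a family of complexes that remodel chromatin with energy from ATP. These 2 genes were taken by identifier from the count tables of 2 human lung cancer lines, in which 22842 identifiers are present in both tables, and both genes were measured in all 12 libraries and passed the filter on low counts in each line. A549 and H1299 are established lines of non-small-cell lung cancer, which the labels describe as wild type (wt). Each line was given BRM014 at 5 µM or its solvent DMSO for 12 h, with 3 libraries of total RNA per line and treatment. Of the 107 samples in the series, the other 95 came from different assays or cells and were not used here. A549 was grown in F12-K medium and its libraries had 9 cycles of PCR, while H1299 was grown in RPMI and its libraries had 8 cycles, so the effects of line, medium and PCR cannot be told apart. DMSO is given as 0.05% in the titles and the treatment protocol and as 0.5% in the treatment field. The labels do not say whether replicates were separate cultures, and each p-value therefore rests on a spread between libraries that may be technical.

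A SWI/SNF complex holds either BRM or BRG1, which hydrolyses ATP to slide or evict nucleosomes and so opens DNA at enhancers and promoters. BRM014 is an allosteric inhibitor of the ATPase activity of both proteins. It acts on the enzymes, and gene counts show the RNA of its targets, not the amount or the activity of the proteins. As background, both lines are generally described as lacking BRG1 protein because of damaging changes in SMARCA4, and lung cancer cells without BRG1 are known to depend on BRM. The counts analysed here do not show whether a transcript encodes a working protein. The question for these genes is how much RNA of each target a line holds, and whether 12 h of inhibition alters it.

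The libraries held 28412113 to 50177678 counts. SMARCA2 had 570 to 3243 counts per library and SMARCA4 had 912 to 1923. Levels are given as CPM, counts scaled to a common total per library, with the 12 libraries scaled together by TMM factors, which set the bulk of genes to a common level. They are shares of a library, so a change of a gene cannot be told apart from an opposite change of total RNA per cell, and in these bulk samples fewer cells with the RNA and less RNA per cell cannot be told apart. The 2 A549 libraries with BRM014 that share a column header carry no replicate number and are called libraries a and b here. The strand setting of the counting is not given in the sources used here, so counts from genes that overlap SMARCA2 or SMARCA4 may be included.

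SMARCA2, the gene for BRM, was lower in H1299 than in A549, and SMARCA4, the gene for BRG1, was higher. With DMSO, SMARCA2 stood at 70.7, 70.9 and 71.7 CPM in A549 replicates 1 to 3 and at 19.1, 19.7 and 18.9 CPM in H1299. The lowest A549 library lay far above the highest H1299 library. The means were 71.1 ± 0.545 CPM and 19.2 ± 0.437 CPM (SD, n = 3). This is a 3.70-fold lower level in H1299, a log2 difference of -1.89 (standard error 0.05, 95% interval -2.0 to -1.78). The adjusted p was 9.29e-21 in edgeR's quasi-likelihood test with Benjamini-Hochberg adjustment.

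SMARCA4 with DMSO stood at 29.2, 24.9 and 26.4 CPM in A549 and at 43.8, 47.7 and 48.8 CPM in H1299. The groups did not overlap, and the A549 libraries spread more widely around their mean than they did for SMARCA2. The means were 26.8 ± 2.16 and 46.8 ± 2.62 CPM (SD, n = 3). SMARCA4 was 1.74-fold higher in H1299, a log2 difference of 0.80 with a standard error of 0.07 (95% interval 0.65 to 0.95; adjusted p = 1.72e-10, edgeR). A difference between the lines was the rule among genes: 85.7% of the 16466 tested passed the threshold of an adjusted p below 0.05, with 42.9% higher and 42.8% lower in H1299. Both members passing it is therefore close to that background. Of the 7043 genes that were lower in H1299, 28.4% had a larger difference than SMARCA2, and of the 7071 that were higher, 60.6% had a larger difference than SMARCA4. Scaling by library totals alone, which shifts the median over all genes from 0.02 to 0.24 on the log2 scale, gave -1.66 for SMARCA2 and 1.02 for SMARCA4.

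**Figure D1:**
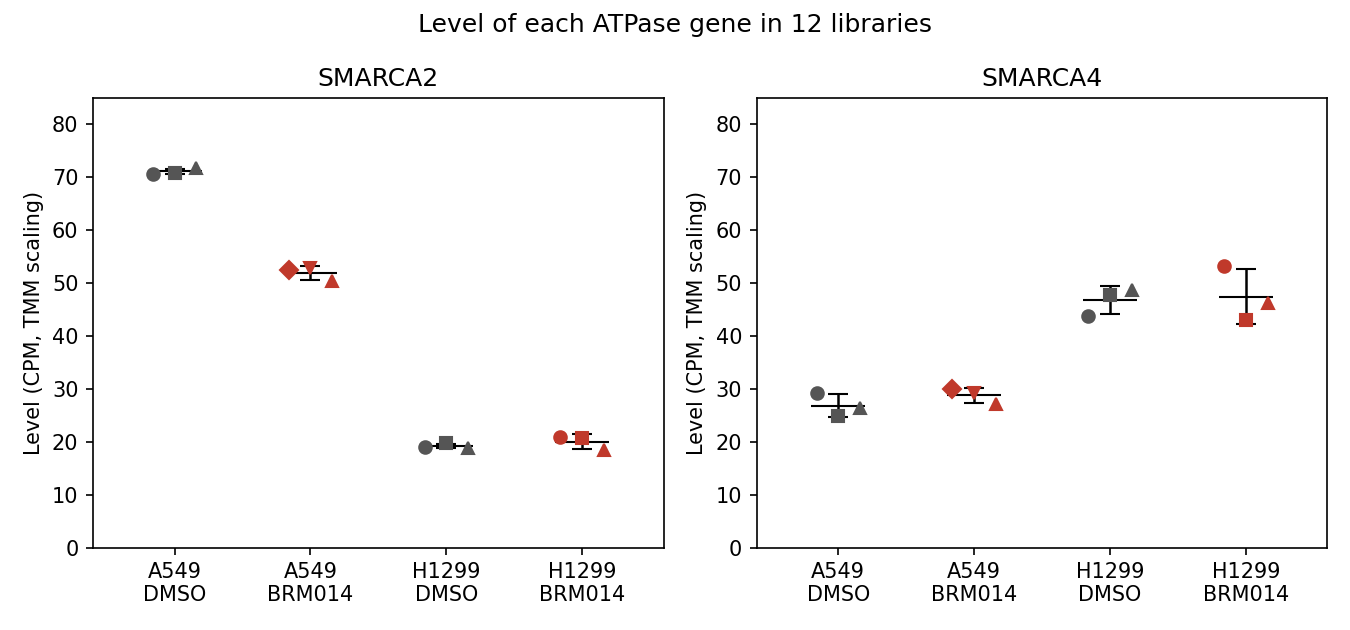
Level of SMARCA2 and SMARCA4 in CPM (linear axis from 0) in each of 12 libraries, by line and treatment; circles, squares and triangles are replicates 1, 2 and 3, diamonds and inverted triangles are the unnumbered A549 libraries a and b, and bars are the mean and SD of 3 libraries. The A549 libraries with BRM014 lie at 50.4 to 52.9 CPM for SMARCA2, below the 70.7 to 71.7 CPM of the A549 DMSO libraries, while the treatments overlap for SMARCA4 and for both genes in H1299.

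In A549, SMARCA2 fell with BRM014. The gene stood at 52.4 CPM in library a, 52.9 in library b and 50.4 in replicate 3, against 70.7 to 71.7 CPM with DMSO. Every library with the inhibitor lay below every DMSO library. The mean with BRM014 was 51.9 ± 1.31 CPM (SD, n = 3). In the fit of A549 alone, SMARCA2 fell by 25.9%, a log2 fold change of -0.43 (standard error 0.04, 95% interval -0.53 to -0.34, adjusted p = 9.10e-06 in edgeR). Without libraries a and b, a setting chosen after seeing the data that leaves 1 library with BRM014, the log2 fold change was -0.49.

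SMARCA4 did not pass the threshold in A549. Its level with BRM014 was 30.0 CPM in library a, 29.2 in library b and 27.1 in replicate 3, with a mean of 28.8 ± 1.49 CPM (SD, n = 3) against 26.8 ± 2.16 CPM with DMSO. The treatments overlapped, since DMSO replicate 1 at 29.2 CPM lay above BRM014 replicate 3. The log2 fold change was 0.12 (standard error 0.07, 95% interval -0.03 to 0.28, adjusted p = 0.207 in edgeR). The interval spans 0.977-fold to 1.21-fold, so the libraries leave room for a rise of up to that size. Without DMSO replicate 1 the log2 fold change was 0.19 with an adjusted p of 0.0433.

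The fall of SMARCA2 was of ordinary size for a gene that BRM014 changed in A549. In that line 37% of the 15188 genes tested passed the threshold and 19.4% fell, so little can be read from 1 of 2 members falling. Of the 2940 genes that fell, 1545 (52.6%) fell more than SMARCA2, and the median log2 fold change among them was -0.47. Over all genes tested, 11.5% had a lower log2 fold change than SMARCA2, and 32.2% had a higher one than SMARCA4.

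In H1299, neither gene passed the threshold with BRM014. SMARCA2 stood at 20.9, 20.8 and 18.5 CPM in BRM014 replicates 1 to 3, with a mean of 20.1 ± 1.36 CPM (SD, n = 3) against 19.2 ± 0.437 CPM with DMSO. The lowest of the BRM014 libraries lay under all DMSO libraries and the other two lay above them. The log2 fold change was 0.06 (standard error 0.06, 95% interval -0.07 to 0.19, adjusted p = 0.547 in edgeR). The log2 fold change estimated in A549, -0.43, lies outside that interval.

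SMARCA4 in H1299 stood at 53.2, 43.0 and 46.2 CPM with BRM014, a mean of 47.4 ± 5.23 CPM (SD, n = 3) against 46.8 ± 2.62 CPM with DMSO. The BRM014 libraries took both the highest and the lowest place of the 6. The log2 fold change was 0.02 (standard error 0.06, 95% interval -0.10 to 0.13, adjusted p = 0.875 in edgeR), and its sign changed when DMSO replicate 1 (-0.03) or BRM014 replicate 1 (-0.07) was left out. In H1299, 22% of the 14986 genes tested passed the threshold in edgeR, against 0 of the 2 members. Of the same 14986 genes, 2739 passed in DESeq2 and 3265 in limma-voom, each against 0 of the 2 members. The unadjusted p in edgeR was 0.327 for SMARCA2 and 0.755 for SMARCA4.

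**Figure D2:**
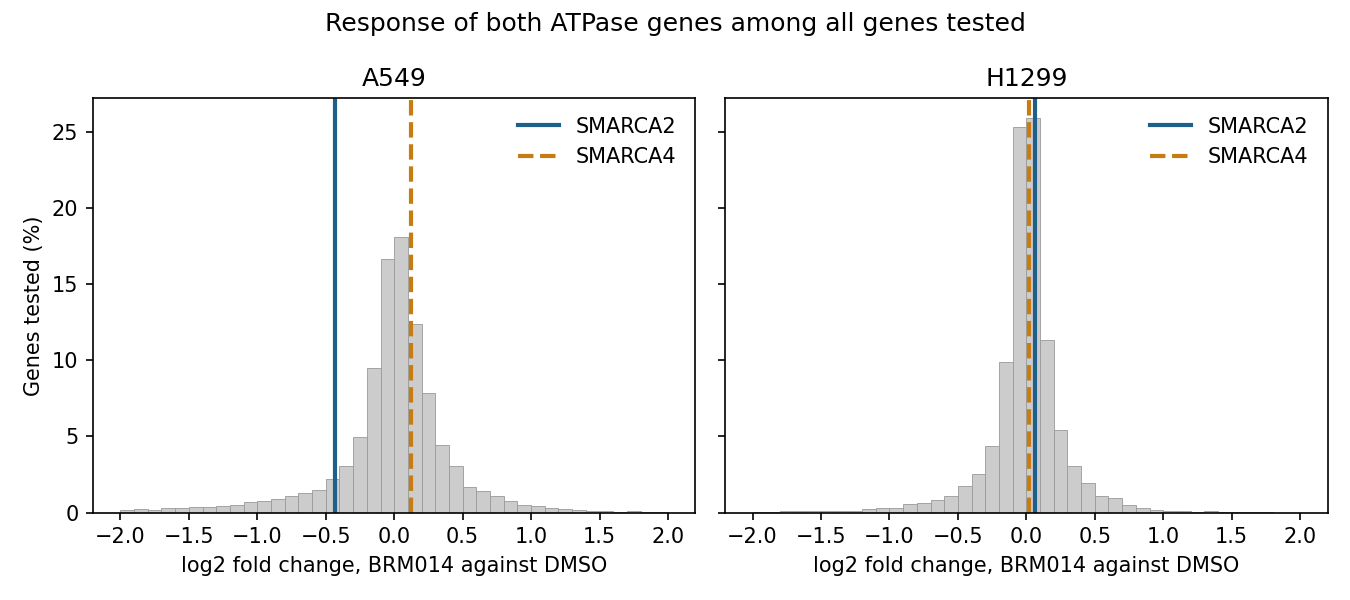
Share of genes tested (vertical axis, %) by log2 fold change of BRM014 against DMSO in bins of 0.1 (horizontal axis) for each line; lines mark SMARCA2 (solid) and SMARCA4 (dashed), and 208 genes in A549 and 64 in H1299 lie beyond the axis. SMARCA2 lies at -0.43 in the left flank in A549 and at 0.06 near the centre in H1299.

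The responses of SMARCA2 in the lines differed. The log2 fold change was more positive in H1299 by 0.52 (standard error 0.07, 95% interval 0.36 to 0.67). The adjusted p was 1.36e-05 for the interaction of line and treatment in edgeR, fitted over all 12 libraries. For SMARCA4 the difference of responses was -0.08 with a standard error of 0.10 (95% interval -0.29 to 0.13; adjusted p = 0.644, edgeR), and no difference was shown. Over all 16466 genes tested, 19.5% passed this test and 10.2% had the more positive response in H1299. Of these 1682 genes, 39.1% had a larger difference than SMARCA2.

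The gap between the lines was also present with BRM014, a comparison added after the levels were seen. SMARCA2 was 2.58-fold lower in H1299 (log2 difference -1.37, standard error 0.05, adjusted p = 7.58e-18, edgeR) and SMARCA4 1.65-fold higher (0.72, standard error 0.07, adjusted p = 1.05e-09). With the inhibitor 85.5% of the genes differed between the lines, 42.7% higher and 42.8% lower in H1299. From highest to lowest, the levels of SMARCA2 ran from A549 with DMSO through A549 with BRM014 to H1299, where the treatments did not differ beyond their spread. For SMARCA4 the order was H1299 and then A549, and within each line the treatments overlapped.

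**Figure D3:**
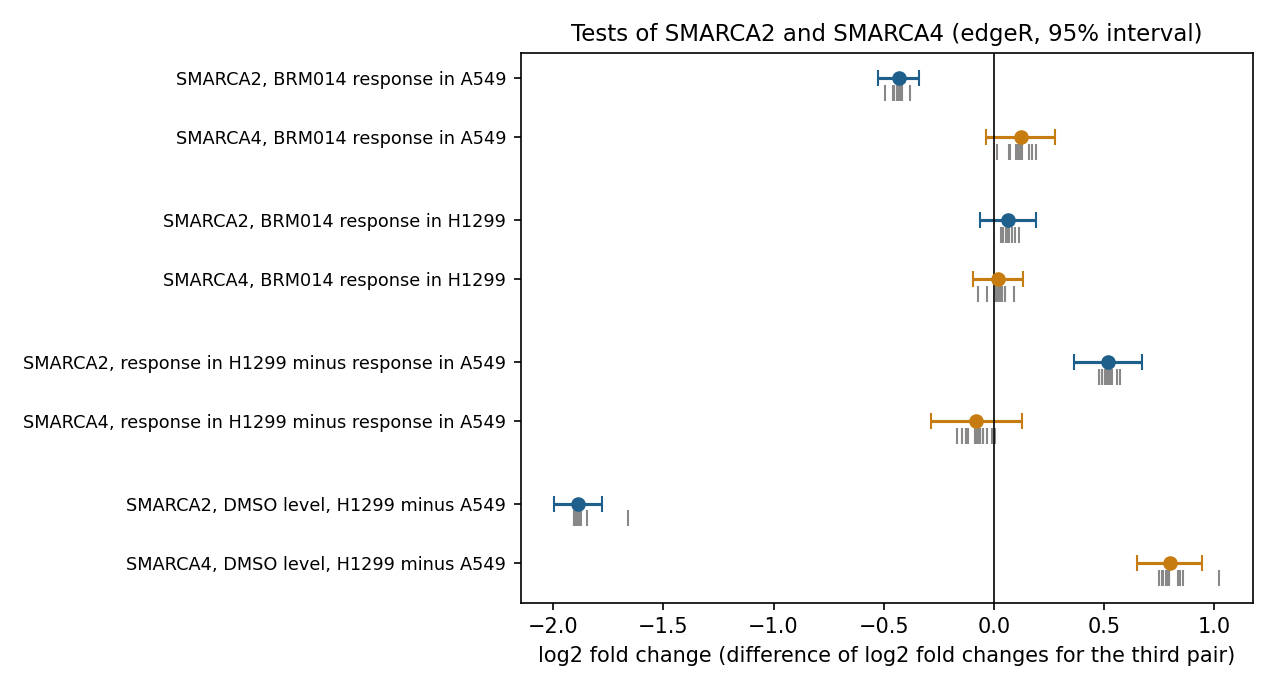
Estimates for SMARCA2 (blue) and SMARCA4 (orange) on the log2 scale with 95% intervals from edgeR, for the response in each line, the difference of responses and the difference between lines with DMSO; grey ticks under each are the values under the alternative settings and with libraries left out. The ticks for SMARCA2 in A549 run from -0.49 to -0.38, all left of 0, and those for SMARCA4 in H1299 lie on both sides of 0.

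The ratio of SMARCA4 to SMARCA2 counts within a library needs no scaling factor. Gene length cancels from differences of the ratio between groups where the groups use the same transcript forms of each gene, which was not tested. The ratio itself is not one of transcripts. In A549 with DMSO there were 0.413, 0.351 and 0.368 SMARCA4 counts per SMARCA2 count in replicates 1 to 3. With BRM014 there were 0.572 in library a, 0.553 in library b and 0.538 in replicate 3. The groups did not overlap, and the mean log2 ratio went from -1.41 ± 0.12 to -0.85 ± 0.04 (SD, n = 3), a 1.47-fold higher ratio. The exact two-sided permutation test gave p = 0.1, the smallest that 3 libraries against 3 allow. Without libraries a and b the log2 ratio differed by 0.51, against 0.56 with them.

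In H1299 the ratio was 2.30, 2.42 and 2.58 with DMSO and 2.54, 2.07 and 2.50 with BRM014. These groups overlapped, and the mean log2 ratios were 1.28 ± 0.08 and 1.24 ± 0.16 (SD, n = 3; difference -0.04, exact permutation p = 0.8). With DMSO, the ratio was 6.46-fold higher in H1299 than in A549, a log2 difference of 2.69 (exact permutation p = 0.1). Averaged over both treatments the log2 difference between the lines was 2.39, with all 6 H1299 libraries above all 6 A549 libraries. Permuting the line within each treatment gave p = 0.005 (exact, two-sided), the smallest that the 400 arrangements can give. After adjustment over the 5 comparisons of the ratio it was 0.025. The ratio restates the level differences of both genes and is not a separate result. With DMSO, 85.7% of the 16466 genes tested differed between the lines, 42.9% higher and 42.8% lower in H1299. How many other pairs of genes separate the lines in this way was not tested. Averaged over both lines, the log2 ratio was higher with BRM014 by 0.26 (exact permutation p = 0.065, adjusted p = 0.125), which does not pass 0.05.

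**Figure D4:**
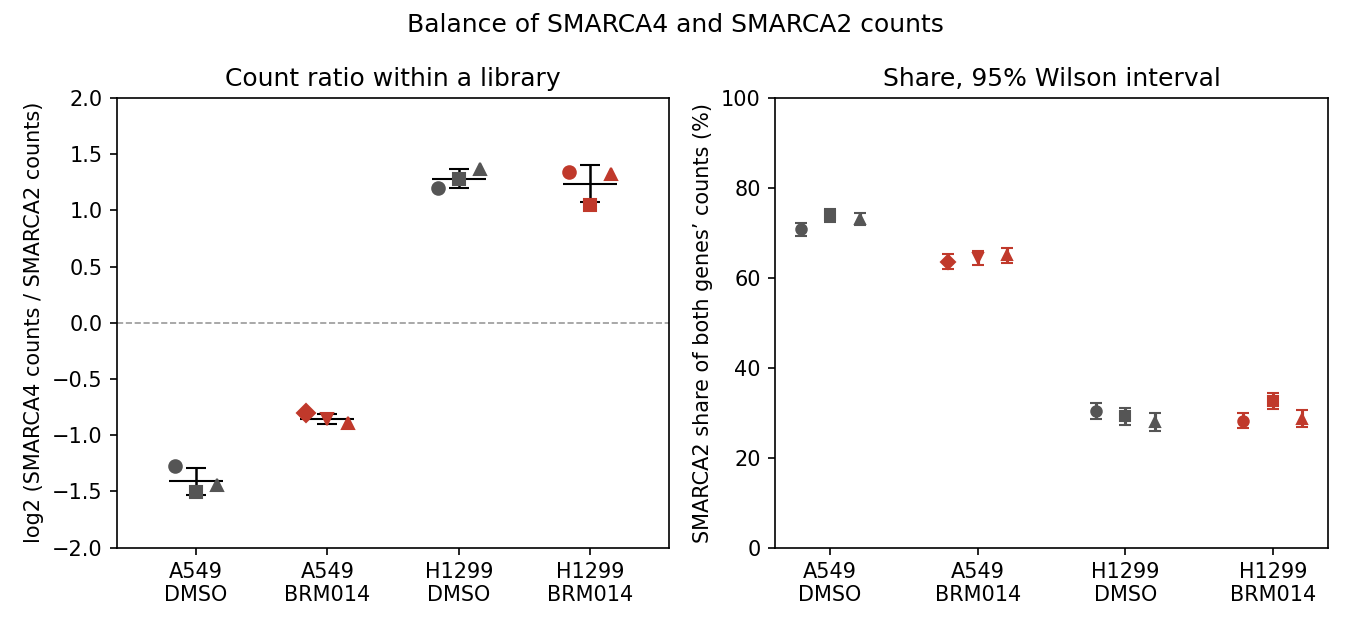
Balance of counts between the genes in each library, as the log2 ratio of SMARCA4 to SMARCA2 counts with mean and SD of 3 libraries (left), and as the SMARCA2 share of the counts of both genes in % with 95% Wilson intervals, which cover counting error only (right); symbols are as in the plot of levels. A549 moves from -1.41 to -0.85 on the left with BRM014, and H1299 stays between 1.05 and 1.37.

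As a share of the counts of both genes, SMARCA2 took 72.6% ± 1.65 in A549 with DMSO and 64.3% ± 0.705 with BRM014 (SD, n = 3). In H1299 it took 29.1% ± 1.21 and 29.8% ± 2.41. In the A549 library with the lowest share under DMSO, replicate 1, the share was 70.8% (95% Wilson interval 69.4% to 72.2%, counting error only). The highest share under BRM014, in replicate 3, was 65.0% (63.3% to 66.7%), and these intervals did not overlap. They leave out the spread between libraries, so they do not test the difference between treatments. For SMARCA4 in A549 with DMSO that spread was 8.04%, against 3.03% of counting error. The summed level of both genes in A549 was 98.0 ± 2.04 CPM with DMSO and 80.7 ± 2.73 CPM with BRM014. In H1299 it was 66.0 ± 2.71 and 67.5 ± 5.75 CPM (SD, n = 3).

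Averaged over both lines, neither gene's level differed between treatments past 0.05. For SMARCA2 the mean log2 difference between BRM014 and DMSO was -0.20 (exact permutation within lines, p = 0.085, 0.17 after adjustment over both genes), which joins -0.45 in A549 and 0.06 in H1299 on this scale. For SMARCA4 it was 0.06 (exact permutation p = 0.375, adjusted p = 0.375).

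The observed coefficient of variation was higher for SMARCA4 than for SMARCA2 in each group. This difference was not tested, and 3 libraries estimate a spread only imprecisely. In A549 with DMSO the coefficient of variation of SMARCA2 over 3 libraries was 0.766%, under the 1.85% that counting error alone gives on average over these libraries, which held 2595 to 3243 counts. In A549 with BRM014 it was 2.52%, against 2.17% of counting error. In H1299 it was 2.28% with DMSO, under the 3.88% of counting error, and 6.79% with BRM014, above the 3.68% of counting error. SMARCA4 varied more than counting error in each group, from 5.17% against 2.91% in A549 with BRM014 to 11.02% against 2.38% in H1299 with BRM014. The biological coefficient of variation that edgeR assigned was 3.91% for SMARCA2 and 5.77% for SMARCA4 in A549, and 3.95% and 4.29% in H1299.

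By the Pearson correlation of log2 CPM over the 12 libraries, the gene most like SMARCA2 among 11129 with a mean of at least 5 CPM was the one listed as ENSG00000131746 (r = 0.999). It went from 78.3 CPM with DMSO to 12.3 with BRM014 in A549 and, in H1299, had no counts with DMSO and 0.00992 CPM with BRM014. It passed the level filter through A549 alone, and its H1299 values lie at the floor set by the prior count, so its r and rank rest on that floor and on the gap between the lines and show no likeness within H1299. The gene most like SMARCA4 was ENSG00000229180 (r = 0.993), at 5.22 and 6.05 CPM in A549 and 14.7 and 14.0 CPM in H1299 with DMSO and BRM014. The libraries form a cluster for each line, and 3847 genes had an r above 0.9 with SMARCA2 and 3075 with SMARCA4, so these values describe mainly the gap between the lines.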

How the data were processed

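The authors deposited a table of unnormalized raw counts per gene for either line. The submitters' processing notes name STAR 2.7.3a, featureCounts, cutadapt 1.14, DESeq2 and Bowtie 1.2.2, and build hg38; the annotation is not given in the sources used here. Per the labels' protocols, libraries were made from 500 ng of total RNA depleted of ribosomal RNA. The deposited counts hold 0 spike-in rows, so none could be used for scaling. Columns were matched to samples by title, and 2 A549 columns with 1 header to their group only. Replicates of each group differed by more than sampling noise (chi-square per degree of freedom 2.20 to 11.1 over genes with at least 20 counts).

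Tests were run with edgeR 4.0.16 in R 4.3.3: filterByExpr (count minimum 10, total 15), TMM, and two-sided quasi-likelihood tests, with Benjamini-Hochberg adjustment over all genes tested and a threshold of 0.05. Each line was fitted alone, and comparisons between lines used all 12 libraries over shared identifiers. Standard errors are the log2 fold change over the square root of F. The script was checked on simulated counts in which far fewer genes changed than passed the threshold here. That check does not cover changes as widespread as those in these data. Permutation tests enumerated all arrangements. They used the log2 ratio of raw counts for the ratio, and log2 CPM with a prior count of 2 for the level of each gene. Alternatives used limma 3.58.1, DESeq2 1.42.0, other scalings and filters, and libraries left out.

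The members and lists were chosen with earlier results of these data known. Named in the text are the 2 members and, by a separate rule for named genes, the gene most correlated with each. Lists of SWI/SNF partners, other remodellers and cell markers were set by symbol and are not described, because the name tables at hand, for mouse, matched 0 identifiers; for the same reason the identity of the lines was not checked against markers, and positions and sequences are not given.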

Additional observations from a re-analysis of the deposited data

Results flagged for a closer look

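The response of SMARCA2 to BRM014 differed between the lines in the interaction test, by a log2 difference of 0.52 (H1299 minus A549), from a log2 fold change of -0.43 in A549 and 0.06 in H1299. Over the 19 alternatives the difference ranged from 0.48 to 0.57 and passed the threshold in each. The lines also differed in medium and PCR cycles, so these cannot be told apart from the line.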

How the results depend on the processing

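The log2 fold changes of SMARCA2 kept their direction and their side of the threshold under every alternative tried: -0.49 to -0.38 in A549 (14 alternatives), 0.03 to 0.12 in H1299 (14) and -1.91 to -1.66 between the lines with DMSO (12). SMARCA4 between the lines with DMSO ranged from 0.75 to 1.02 (12 alternatives) and passed in each. Its response in A549 ranged from 0.02 to 0.19, and leaving out a library gave 0.0684 to 0.190; it passed the threshold only without DMSO replicate 1 (adjusted p = 0.0433 in edgeR). Its response in H1299 did not pass under any alternative, and leaving out a library gave -0.0740 to 0.0936, with values below 0 without DMSO replicate 1 (-0.0328) or BRM014 replicate 1. Its difference of responses ranged from -0.17 to -0.01 with a library left out and was 0.00604 without both unnumbered A549 libraries, a setting chosen after seeing the data that leaves a single A549 library with BRM014, assumed to vary like the others. The ratio of SMARCA4 to SMARCA2 in A549 differed between treatments by 0.51 to 0.62 on the log2 scale, and in H1299 by -0.10 to 0.05. With the replicate number as a replicate block, the H1299 log2 fold changes were 0.0618 for SMARCA2 and 0.0176 for SMARCA4, and no call changed. The block was an alternative only, because the labels do not say that a number pairs libraries. Over the genes tested, the deviations of H1299 libraries with the same number correlated at -0.024, -0.0282 and 0.00768. These values do not settle pairing, because genes with few counts weigh as much as the others. A block was not run for A549, because 2 of its columns carry no number. For SMARCA2 in H1299, the counting error averaged over the libraries of a group is 3.88% of the value with DMSO and 3.68% with BRM014, which limits the size of change that 3 libraries can show.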
